A study of Mus musculus with 21 samples.

Results

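Transcripts of 7 dopamine neuron genes and of the prolactin receptor gene were followed across diets in the mouse ventral hypothalamus (VH). The genes are *Th*, *Ddc*, *Gch1*, *Slc6a3*, *Slc18a2*, *Drd2*, *Maoa* and *Prlr*, taken by symbol from the deposited gene count table. All 8 were found, each with a single Ensembl identifier, among the 21654 genes in the table, and all 8 averaged at least 50 reads per library, the minimum for testing, which 12768 genes reached.

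The study fed mice regular chow (RC) or a high-fat diet (HFD) and then switched some of them to the other diet, a diet switch (DS), so that body weight and current diet could be separated. All mice were male C57BL/6J, acquired at 12 to 14 weeks of age, and were kept awake with new objects for 3 h before tissue was taken in the middle of the light phase (ZT6), one week after the switch. Punches of the VH, named circumventricular hypothalamus in the labels, gave polyA RNA, and each library pooled RNA of 2 mice of the same group, so that no library shows a single animal. RC NoDS (no diet switch, RC throughout) has 5 libraries, RC → HFD (RC, then HFD for the last week) has 6, HFD → RC (HFD, then RC for the last week) has 5 and HFD NoDS (HFD throughout) has 5.

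Dopamine is made in 2 steps from tyrosine, first by tyrosine hydroxylase, which needs tetrahydrobiopterin as a cofactor, and then by aromatic amino acid decarboxylase. Vesicles take the amine up, the receptors sense it after release, a transporter in the cell membrane takes it back, and oxidases break it down. In the arcuate nucleus, tuberoinfundibular dopamine neurons restrain prolactin release from the pituitary and themselves carry the prolactin receptor, which signals through Jak2 and Stat5.

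The authors had re-sampled the libraries to the same depth, and reads counted on genes summed to between 16380781 and 16390598 per library. By median, this total was 16388560 in RC NoDS, 16386694 in RC → HFD, 16385368 in HFD → RC and 16385691 in HFD NoDS. Libraries differed more in how many weakly expressed genes had no read: of the 3116 genes averaging 5 to 50 reads, the share at 0 had a median of 2.34% in RC NoDS (1.12% to 7.22%), 14.6% in HFD NoDS (7.70% to 32.9%), 12.1% in RC → HFD (2.31% to 22.4%) and 15.1% in HFD → RC (5.68% to 31.9%). This share is lowest in RC NoDS and therefore moves with the diet groups. The 2 libraries above 30%, HFD → RC replicate 17 and HFD NoDS replicate 20, were left out in one alternative, and the share was added as a covariate in another. Reads carried no molecular identifiers and so do not count molecules, and the spread between libraries was used for every test.

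Levels between genes are compared as mean reads per kilobase of annotated exon over the 21 libraries. On this scale *Th* was the most abundant of the 8 at 547, followed by *Ddc* at 276, *Maoa* at 184 and *Slc18a2* at 132. *Drd2* at 88.9, *Gch1* at 83.0 and *Slc6a3* at 82.1 lay close together, by less than their spread between libraries, and *Prlr* was lowest at 45.3, over 15494 bases of exon. In these bulk punches, fewer cells of a type and less RNA per cell cannot be told apart.

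Genes of other amine neurons were examined beside them because *Ddc*, *Slc18a2* and *Maoa* are not confined to dopamine neurons. Of 6 noradrenaline and serotonin neuron markers, none reached the minimum for testing, and each of the 6 (*Dbh*, *Pnmt*, *Slc6a2*, *Tph2*, *Slc6a4* and *Fev*) had 0 reads in at least 1 library. The most abundant of them was *Dbh*, at 4.21 reads per kilobase. The histamine neuron marker *Hdc*, by contrast, averaged 831 reads per library, or 130 per kilobase, with 231 in the library with fewest. *Hdc* marks the tuberomammillary neurons, which also carry the vesicular transporter *Slc18a2*.

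Of 8 dopamine neuron transcription factors, *Foxa2* was not in the table and 2 were tested. *Nr4a2* was the most abundant at 47.5 reads per kilobase, while *Pitx3*, a factor of midbrain dopamine neurons, averaged 1 read and had 0 reads in 17 of the 21 libraries. Among the other dopamine receptor genes only *Drd1* was tested, at 31.2 reads per kilobase, and *Drd3*, *Drd4* and *Drd5* each had 0 reads in at least 1 library. Markers of the arcuate nucleus were abundant, with *Pomc* at 8246 reads per kilobase. Of the paraventricular nucleus markers, *Avp* at 18157 and *Oxt* at 8931 reads per kilobase were abundant, while *Crh* stood at 6.17, with 0 reads in 7 libraries, and *Sim1* at 5.63, and neither was tested. *Kiss1*, of the arcuate list, stood at 136. Markers of the labelled tissue were thus not all abundant.

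Differences between diets were tested by edgeR over all 12768 genes, with p-values adjusted by the Benjamini-Hochberg method over all of them and genes called at an adjusted p below 0.15. The comparison RC NoDS v HFD NoDS asks about lasting obesity and is given as HFD NoDS over RC NoDS, whereas RC → HFD v HFD → RC compares the groups of similar weight and is given as HFD → RC over RC → HFD. The current diet compares the groups on HFD in the last week with those on RC, and the earlier diet compares the groups on HFD before the switch with those on RC. The interaction, the difference of HFD NoDS and HFD → RC minus the difference of RC → HFD and RC NoDS, asks whether the current diet acts differently by earlier diet, and it is also the sum of both unswitched groups minus the sum of both switched groups. These comparisons use the same libraries and are not independent of each other.

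None of the 8 genes was called by edgeR in any of the 6 comparisons, and none by DESeq2 or limma-voom. The share of all tested genes called was 0.0783% in RC NoDS v HFD NoDS, 0.00783% in RC → HFD v HFD → RC, 0.149% over all 4 groups, 0.047% for the current diet, 0.0705% for the earlier diet and 0.0313% for the interaction, so a count of 0 among 8 is near this background. At an unadjusted p below 0.05 the count among the 8 was 1 in RC NoDS v HFD NoDS (*Prlr*), 1 in RC → HFD v HFD → RC (*Prlr*), 2 over all 4 groups (*Th* and *Prlr*), 0 for the current diet, 1 for the earlier diet (*Prlr*) and 2 for the interaction (*Th* and *Gch1*). Among all tested genes the same limit was passed by 7.41%, 5.35%, 7.97%, 5.22%, 7.27% and 8.84%, in the same order.

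The median log2 difference of the 8 genes was −0.15 in RC NoDS v HFD NoDS, with 7 below 0, and −0.03 in RC → HFD v HFD → RC, with 6 below 0. It was −0.09 for the current diet and −0.09 for the earlier diet, with 7 below 0 in each, and 0.19 for the interaction, with 3 below 0. The median over all tested genes lay at 0.01 in RC NoDS v HFD NoDS and at 0.00 in the other 4.

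**Figure D1:**
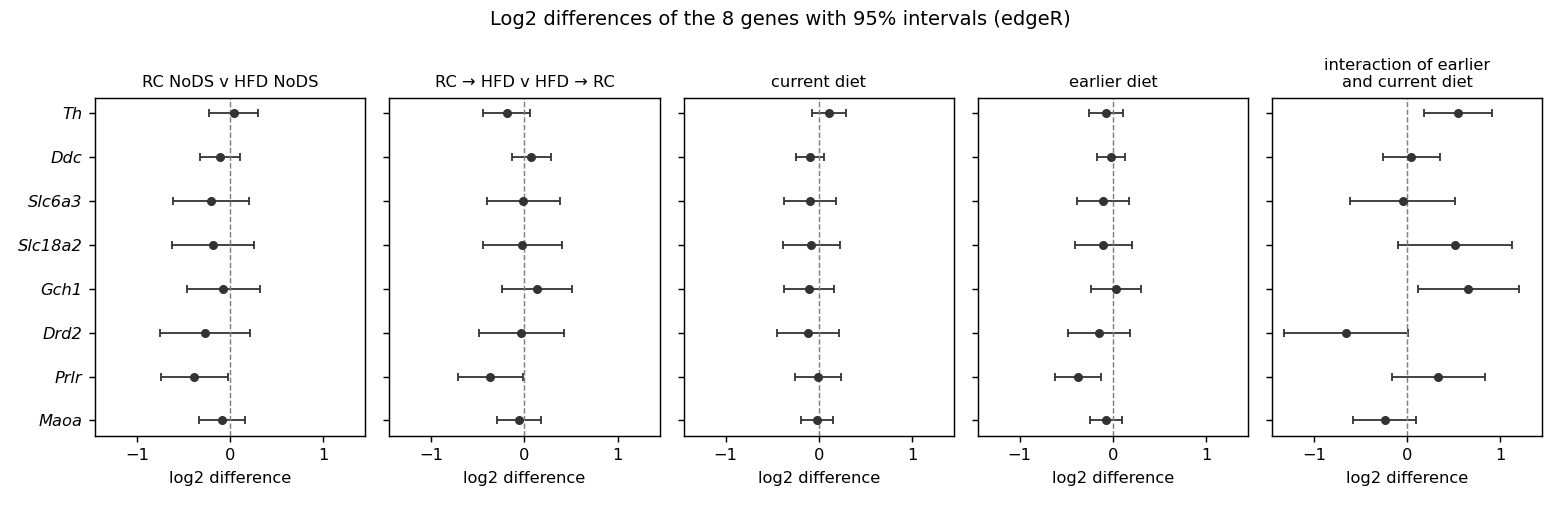
Log2 differences of each gene in 5 comparisons (x axis, edgeR), as points with 95% confidence intervals. Intervals of *Prlr* lie below 0 for the earlier diet, in RC → HFD v HFD → RC and in RC NoDS v HFD NoDS, and those of *Th* and *Gch1* above 0 in the interaction, but no gene passed the threshold after adjustment.

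*Th* (ENSMUSG00000000214, minus strand of chromosome 7, 150078657 to 150117033 in mm9) encodes tyrosine hydroxylase, the rate-limiting enzyme of dopamine synthesis. It had 1183, 1370, 1250, 1735 and 1533 reads in the RC NoDS libraries (replicates 1, 2, 3, 5 and 6) and 1284, 1517, 1418, 1577 and 1374 in the HFD NoDS libraries (replicates 19, 20, 21, 23 and 24). In HFD → RC (replicates 13 to 17) it had 765, 1343, 1100, 1293 and 953 reads, and the 6 RC → HFD libraries ran from 1033 to 1489 with a median of 1247. The unswitched groups were thus the higher and the switched groups the lower, with HFD → RC replicates 13 and 17 lowest of all, and every pair of groups overlapped.

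Mean *Th* reads were 1414 ± 223 (SD, n = 5) in RC NoDS, 1434 ± 116 (n = 5) in HFD NoDS, 1245 ± 168 (n = 6) in RC → HFD and 1091 ± 239.6 (n = 5) in HFD → RC. Of the 11 switched libraries 10 lay below the mean of the 10 unswitched ones, 1424, and the exception was RC → HFD replicate 7. The interaction was 0.55 on the log2 scale (95% interval 0.18 to 0.91, adjusted p = 0.302) and missed the threshold. Its adjusted p ran from 0.191 to 0.515 when single libraries were left out and from 0.191 to 0.350 under the other alternatives. HFD NoDS differed from RC NoDS by 0.04 (SE 0.13, adjusted p = 0.957), and HFD → RC from RC → HFD by −0.19 (SE 0.12, adjusted p = 1.00). The latter ran from −0.28 to −0.088 when single libraries were left out. In the interaction, several region and cell type markers also lay away from 0, though none was called. Medians were −0.74 for ventromedial and −0.30 for neuron markers, all below 0, with 2 and 3 at an unadjusted p below 0.05. Medians were 0.39 for arcuate (5 above 0, 1 below) and 0.43 for paraventricular markers (2 above). Lateral hypothalamus markers had −0.66 (2 below 0), endothelial markers −0.26 (4 below) and astrocyte markers −0.09 (3 above, 3 below). The histamine neuron marker *Hdc* had 0.54. Their part in the *Th* interaction was not tested.

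*Gch1* (ENSMUSG00000037580, minus strand of chromosome 14, 47773570 to 47809088) encodes GTP cyclohydrolase, which starts the synthesis of tetrahydrobiopterin, the cofactor of tyrosine hydroxylase. It had 252, 250, 224, 252 and 360 reads in RC NoDS, between 162 and 221 (median 201) in RC → HFD, 194, 171, 158, 259 and 289 in HFD → RC, and 177, 198, 327, 281 and 275 in HFD NoDS. By reads, every RC → HFD library lay below every RC NoDS library, while the other pairs of groups overlapped. The gap was narrow, at 221 against 224 reads, and after TMM scaling this pair overlapped as well. RC NoDS replicate 6 stood well above the rest of its group.

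By reads, 1 of the 8 genes (*Gch1*) was without overlap for RC NoDS v RC → HFD, beside 1.17% of all tested genes, but after TMM scaling it overlapped. None of the 8 was without overlap in the other pairs, for which all tested genes gave 0.893% (RC NoDS v HFD NoDS), 1.32% (RC NoDS v HFD → RC), 0.744% (RC → HFD v HFD NoDS), 1.02% (HFD → RC v HFD NoDS) and 0.486% (RC → HFD v HFD → RC). Over 48 combinations of gene and pair, 1 without overlap by reads is near this background. RC NoDS v RC → HFD was not tested as a pair, and some sums of brain region and cell type markers, given below, also differed between these groups by more than either SD.

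Mean *Gch1* reads were 268 ± 53.0 (SD, n = 5) in RC NoDS, 252 ± 62.3 (n = 5) in HFD NoDS, 195 ± 23.1 (n = 6) in RC → HFD and 214 ± 57.1 (n = 5) in HFD → RC. Of the 11 switched libraries 10 lay below the mean of the unswitched ones, 259.6, which includes RC NoDS replicate 6, and 9 below their median, 252. HFD → RC replicate 17 lay above both and replicate 16, at 259, between them. The interaction was 0.66 (95% interval 0.12 to 1.20, adjusted p = 0.445), and its adjusted p ran from 0.261 to 0.675 over single libraries left out and from 0.159 to 0.489 under the other alternatives. The lowest of these, 0.159, came without the 2 libraries above 30%, where the interaction was 0.86. The remaining differences lay between −0.10 for the current diet and 0.13 for RC → HFD v HFD → RC.

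*Ddc* (ENSMUSG00000020182, minus strand of chromosome 11, 11714104 to 11798047) encodes the decarboxylase that turns L-DOPA into dopamine, and it overlaps 1700042O10Rik on the opposite strand. Over the 21 libraries it ran from 930 to 1576 reads, a 1.69-fold range. Its group means were 1276 ± 198 (SD, n = 5) in RC NoDS, 1167 ± 147 (n = 5) in HFD NoDS, 1157 ± 158 (n = 6) in RC → HFD and 1218 ± 63.7 (n = 5) in HFD → RC, which lie apart by less than the SD of RC NoDS. The largest difference was −0.11 (SE 0.11, adjusted p = 0.794) in RC NoDS v HFD NoDS. It ran from −0.18 to −0.028 when single libraries were left out and from −0.13 to −0.017 under the other alternatives.

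Of the 5 tetrahydrobiopterin cofactor genes listed (*Pts*, *Spr*, *Qdpr*, *Pcbd1* and *Gchfr*), 4 were tested and 0 called by edgeR in any comparison, with at most 1 in a comparison at an unadjusted p below 0.05. *Qdpr*, which recycles the cofactor, was the most abundant at 1604 reads per kilobase. Its difference by earlier diet was 0.26 (SE 0.08, adjusted p = 0.512), the only 1 of the 4 above 0, beside a median of −0.03. The 4 tested genes had a median difference of −0.02 in RC NoDS v HFD NoDS, with 2 above 0 and 2 below, and of 0.04 for the interaction, also with 2 and 2.

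**Figure D2:**
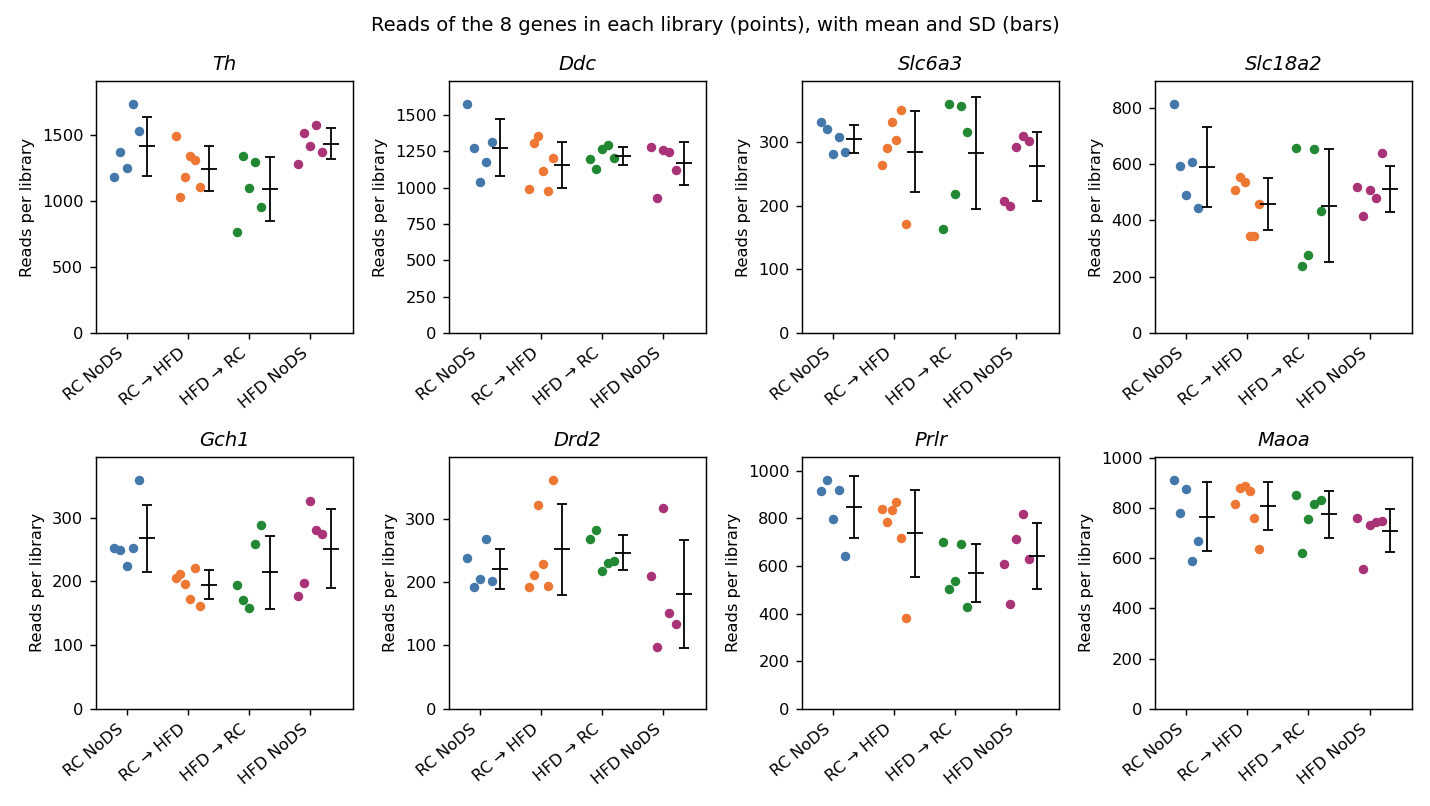
Reads of each gene (y axis, from 0) in every library by diet group, as points, with the mean and SD of the group as bars. The RC → HFD libraries of *Gch1*, at 162 to 221, lie below all RC NoDS libraries by reads, and every other pair of groups overlaps in every gene. After TMM scaling, which is not shown, these *Gch1* groups overlap as well.

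*Slc6a3* (ENSMUSG00000021609, plus strand of chromosome 13, 73674195 to 73716120) encodes the dopamine transporter of the cell membrane, the most specific of the 8 to dopamine neurons. It ran from 163 reads in HFD → RC replicate 13 to 360 in HFD → RC replicate 14, so that both ends of the range lay in 1 group. Group means were 305 ± 22.2 (SD, n = 5) in RC NoDS, 262 ± 54.1 (n = 5) in HFD NoDS, 285 ± 63.3 (n = 6) in RC → HFD and 283 ± 88.0 (n = 5) in HFD → RC. The RC NoDS libraries, at 281 to 332, were the closest together. The widest difference was −0.20 (SE 0.20, adjusted p = 0.796), in RC NoDS v HFD NoDS.

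*Slc18a2* (ENSMUSG00000025094, plus strand of chromosome 19, 59335368 to 59370502) encodes the vesicular monoamine transporter, shared by dopamine, histamine, noradrenaline and serotonin neurons. It had 814, 595, 492, 606 and 445 reads in RC NoDS, between 345 and 555 (median 483.5) in RC → HFD, 658, 238, 276, 655 and 435 in HFD → RC, and 518, 416, 510, 481 and 641 in HFD NoDS. The HFD → RC libraries split, with replicates 13 and 16 high and 14 and 15 the lowest of all 21, and all groups overlapped.

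Mean *Slc18a2* reads were 590.4 ± 142 (SD, n = 5) in RC NoDS, 513 ± 81.9 (n = 5) in HFD NoDS, 458 ± 93.2 (n = 6) in RC → HFD and 452 ± 200.4 (n = 5) in HFD → RC. The interaction was 0.52 (SE 0.30, adjusted p = 0.661). Its SD between libraries of 1 group was 0.41 on the log2 scale, above that of 97.1% of the genes with similar read numbers.

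*Drd2* (ENSMUSG00000032259, plus strand of chromosome 9, 49148732 to 49216282) encodes the D2 receptor, which is both the autoreceptor of dopamine neurons and a receptor of their targets. It had 238, 192, 205, 269 and 202 reads in RC NoDS, between 192 and 362 (median 220.0) in RC → HFD, 269, 282, 217, 231 and 233 in HFD → RC, and 209, 98, 317, 151 and 134 in HFD NoDS. HFD NoDS held both low libraries and one of the highest, and it overlapped every other group.

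Mean *Drd2* reads were 221 ± 31.8 (SD, n = 5) in RC NoDS, 182 ± 85.5 (n = 5) in HFD NoDS, 252 ± 72.4 (n = 6) in RC → HFD and 246 ± 27.7 (n = 5) in HFD → RC. Here 9 of the 11 switched libraries lay above the mean of the unswitched ones, 202, and RC → HFD replicates 7 and 11 below it. The interaction was −0.66 (95% interval −1.33 to 0.01, adjusted p = 0.572), of the opposite sign to those of *Th* and *Gch1*. HFD NoDS differed from RC NoDS by −0.27 (SE 0.24, adjusted p = 0.777), or by −0.56 to −0.11 when single libraries were left out. For *Drd1*, which encodes the D1 receptor, that difference was 0.46 (SE 0.26, adjusted p = 0.683). Of the 11 switched libraries, *Maoa* had 9 and *Slc6a3* 7 above the mean of the unswitched ones. *Slc18a2* had 8 below it, and *Ddc* and *Prlr* had 7 each below it.

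*Maoa* (ENSMUSG00000025037, plus strand of chromosome X, 16196824 to 16264944) encodes monoamine oxidase A, a mitochondrial enzyme that breaks down dopamine, noradrenaline and serotonin. It ran from 557 to 913 reads, the narrowest range of the 8 at 1.64-fold. Group means were 765 ± 137 (SD, n = 5) in RC NoDS, 709 ± 85.4 (n = 5) in HFD NoDS, 808 ± 97.0 (n = 6) in RC → HFD and 775 ± 94.5 (n = 5) in HFD → RC. The widest difference was the interaction, −0.24 (SE 0.17, adjusted p = 0.734).

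*Prlr* (ENSMUSG00000005268, plus strand of chromosome 15, 10106993 to 10303504) encodes the prolactin receptor, and its annotated span overlaps *Agxt2* on the same strand. It had 914, 963, 797, 921 and 642 reads in RC NoDS, and 382, 717 and 868 were the lowest, next lowest and highest of the 6 RC → HFD libraries, with a median of 808.5. It had 702, 504, 535, 694 and 426 reads in HFD → RC and 607, 441, 715, 817 and 630 in HFD NoDS. The 6 highest libraries had RC as the earlier diet, but so had RC → HFD replicate 12, the lowest of all 21, and every pair of groups overlapped.

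Mean *Prlr* reads were 847 ± 130.3 (SD, n = 5) in RC NoDS, 642 ± 139 (n = 5) in HFD NoDS, 737 ± 182 (n = 6) in RC → HFD and 572 ± 122 (n = 5) in HFD → RC. By earlier diet this was 607 ± 129 (SD, n = 10) for HFD against 787 ± 163 (n = 11) for RC, and 9 of the 10 libraries with HFD earlier lay below the mean of those with RC earlier, all but HFD NoDS replicate 23. The difference by earlier diet was −0.37 (95% interval −0.63 to −0.12, adjusted p = 0.520) and missed the threshold. By current diet it was −0.01 (SE 0.12, adjusted p = 0.996).

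The *Prlr* difference was alike in the pairs that make it up, with −0.38 (SE 0.18, adjusted p = 0.657) in RC NoDS v HFD NoDS and −0.36 (SE 0.17, adjusted p = 0.909) in RC → HFD v HFD → RC. Each of these pairs also differs in current diet, so their likeness only restates the small difference by current diet. Between groups of the same current diet, means were 847 (RC NoDS) and 572 reads (HFD → RC) on RC. On HFD they were 737 (RC → HFD) and 642 (HFD NoDS). The interaction was 0.33 (SE 0.24, adjusted p = 0.756). By earlier diet the *Prlr* difference lay between −0.44 and −0.32 when any single library was omitted, but missing the threshold depended on 1 library. Without RC → HFD replicate 12 it was −0.44 with an adjusted p of 0.140, past the threshold, where 18 of all tested genes were called. Over all alternatives its adjusted p ran from 0.140 to 1.00. With the share of weakly expressed genes at 0 as a covariate it was −0.18 (adjusted p = 1.00), and RC NoDS v HFD NoDS was −0.10. Without the 2 libraries above 30% it was −0.28 (adjusted p = 0.886). RC → HFD replicate 12 had the highest such share of its group, 22.4%, and the part of this measure in the *Prlr* difference was not tested.

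Choroid plexus carries much *Prlr*, so its markers were examined. Of 10 markers, 2 were tested, 8 had 0 reads in at least 1 library, and *Clic6* was the most abundant at 215 reads per kilobase. *Ttr*, which choroid plexus makes in large amounts, averaged 33.8 reads per library. Summed markers, as reads scaled to a common library total (CPM), reached 81.3 ± 4.54 CPM (SD, n = 5) in RC NoDS, 74.7 ± 2.76 (n = 5) in HFD NoDS, 79.7 ± 7.41 (n = 6) in RC → HFD and 72.2 ± 11.4 (n = 5) in HFD → RC. This sum was lower with HFD earlier, as *Prlr* was, and its lowest RC → HFD library was also replicate 12. It rests mostly on *Clic6* and *Kl*, which averaged 842 and 289 reads, and the 8 less abundant markers went both ways: *Ttr*, *Folr1*, *Kcnj13*, *Otx2* and *Sostdc1* averaged higher with HFD earlier, *Cldn2*, *Aqp1* and, barely, *Slc4a5* lower. *Ttr* had a mean of 36.2 ± 13.7 reads (SD, n = 5) in RC NoDS and 15.8 ± 13.7 (n = 6) in RC → HFD, against 31.0 ± 14.5 (n = 5) in HFD NoDS and 55.6 ± 17.3 (n = 5) in HFD → RC, and *Cldn2*, in the same order, 11 ± 6.40, 15.3 ± 2.88, 9.60 ± 6.07 and 1.60 ± 2.19. Neither tested marker was called by earlier diet, with −0.18 for *Clic6* (SE 0.06, adjusted p = 0.530) and −0.29 for *Kl* (SE 0.16, adjusted p = 0.737).

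With group means removed, *Prlr* and the summed choroid plexus markers had r = 0.269 (permutation p = 0.286, adjusted p = 0.722) and rho = 0.247 (permutation p = 0.338, adjusted p = 0.719). Without the 2 libraries farthest from the *Prlr* median, r was 0.210. The part of choroid plexus in the group means was not tested.

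All 8 prolactin signalling genes listed were tested, and edgeR and limma-voom called 0 of them in any comparison, while DESeq2 called *Socs3* in RC NoDS v HFD NoDS (adjusted p = 0.128), over all 4 groups (adjusted p = 0.0684) and for the current diet (adjusted p = 0.0616). By edgeR 2 were at an unadjusted p below 0.05 in RC NoDS v HFD NoDS, 3 over all 4 groups, 0 in RC → HFD v HFD → RC and 2 in each of the others. These counts include *Prl* over all 4 groups, for the earlier diet and for the interaction, where its test carries little weight, since it reached the minimum for testing through few libraries. *Stat5b* was the most abundant at 399.8 reads per kilobase. In RC NoDS v HFD NoDS the log2 difference was −0.44 (SE 0.14, adjusted p = 0.640) for *Jak2*, the kinase bound to the receptor, and 0.79 (SE 0.20, adjusted p = 0.468) for *Socs3*, an inhibitor of cytokine receptor signalling that answers to several hormones. Reads of *Socs3* ran from 145 to 241 in RC NoDS and from 260 to 381 in HFD NoDS, without overlap, as in 0.893% of all tested genes. The median of the list was 0.01 in this comparison, with 4 above 0 and 4 below. *Prl*, the hormone itself, had 0 reads in 11 of the 21 libraries and up to 841 in 1 RC → HFD library, for a mean of 151 ± 339 (SD, n = 6) in that group.

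*Prl* is made in the anterior pituitary, whose markers varied widely between libraries. Of 6 such markers 5 were in the table and 3 tested, with *Cga* the most abundant at 271 reads per kilobase. Their sum had a mean of 28.3 ± 17.4 CPM (SD, n = 5) in RC NoDS, 29.2 ± 19.8 (n = 5) in HFD NoDS, 34.6 ± 30.5 (n = 6) in RC → HFD and 39.0 ± 67.9 (n = 5) in HFD → RC. The last mean rests on replicate 13, at 160 CPM, and was 8.72 without it, the lowest of the 4 in place of the highest. No relation of the 8 genes to this sum was called: r ran from −0.269 to 0.208, and at an adjusted permutation p below 0.15 the count was 0 by Pearson and 0 by Spearman, as it was at an unadjusted p below 0.05.

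Between libraries of 1 diet the 8 genes did not move as a single set. Over the 28 pairs, with group means removed, Pearson r of log2 CPM (n = 21 libraries) had a median of 0.131 and ran from −0.573 to 0.559, and 19 were positive. At an unadjusted permutation p below 0.05 there were 6 pairs. After adjustment over the 28, 0 were called by Pearson and 1 by Spearman.

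That pair was *Th* and *Maoa*, with r = −0.573 (permutation p = 0.0131, adjusted p = 0.183) and rho = −0.684 (adjusted p = 0.0949), and r was −0.551 without the 2 libraries farthest from the *Th* median. The highest r joined *Prlr* and *Maoa*, at 0.559 (permutation p = 0.0117, adjusted p = 0.183, rho = 0.362), or 0.535 without 2 libraries. *Th* and *Ddc*, the successive enzymes of dopamine synthesis, had r = −0.353, *Th* and *Slc18a2* −0.482, and *Th* and *Slc6a3* 0.467. Without HFD → RC replicates 13 and 17 these were −0.531 (permutation p = 0.0452), −0.276 and 0.247. The relation of *Th* to *Ddc* was thus stronger without those libraries, and those to *Slc18a2* and *Slc6a3* were weaker. None of the 3 was called.

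Relations to brain region and cell type markers were clearer. Each of the 8 genes was compared with the log2 summed CPM of 6 marker lists, which gave 48 relations. At an adjusted permutation p below 0.15, 10 were called by Pearson and 10 by Spearman, against 11 at an unadjusted p below 0.05 by Pearson. The 10 called by Pearson belong to *Th* (2), *Slc18a2* (4), *Ddc* (1) and *Maoa* (3). Spearman called *Th* with *Hdc* in place of *Slc18a2* with the paraventricular markers.

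*Th* varied with the arcuate nucleus markers (*Agrp*, *Npy*, *Pomc*, *Kiss1*, *Tac2* and *Ghrh*), with r = 0.701 (permutation p = 0.00117, adjusted p = 0.0187) and rho = 0.714 (adjusted p = 0.0149). It also did so with the paraventricular nucleus markers (*Avp*, *Oxt*, *Crh* and *Sim1*), with r = 0.640 (permutation p = 6.3e-04, adjusted p = 0.0173) and rho = 0.706 (adjusted p = 0.0149). Without the 2 libraries farthest from the *Th* median, HFD → RC replicates 13 and 17, r was 0.697 and 0.633. In all 4 groups taken singly, r was positive for both. The arcuate sum rests mostly on *Pomc* and *Npy*, which averaged 8304 and 3040 reads, beside 106 (*Kiss1*) to 837 (*Agrp*) for the others. The paraventricular sum rests mostly on *Avp* and *Oxt*, which averaged 10476 and 4796 reads, beside 41.4 for *Sim1* and 8.14 for *Crh*. With *Hdc*, *Th* had r = −0.527 (permutation p = 0.0387, adjusted p = 0.169) and rho = −0.558 (adjusted p = 0.134), negative in all 4 groups, and r was −0.338 without the same 2 libraries (permutation p = 0.123), so this relation depended on them. *Th* is made in arcuate and in paraventricular cells, and which of them the reads come from was not tested.

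*Slc18a2* followed *Hdc*, with r = 0.765 (permutation p = 7.2e-04, adjusted p = 0.0173) and rho = 0.771 (adjusted p = 0.0149), again positive in all 4 groups. The libraries lowest in *Slc18a2*, HFD → RC replicates 14 and 15, had 254 and 298 *Hdc* reads, where the other 3 of their group had 1126, 983 and 1279. Without these 2 libraries r was 0.532 (permutation p = 0.0108). *Slc18a2* went opposite to the arcuate markers, with r = −0.646 (adjusted p = 0.0203) and rho = −0.603 (adjusted p = 0.0560), or r = −0.547 without the same 2.

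Other called relations were less firm. *Slc18a2* had r = −0.514 with the paraventricular markers (adjusted p = 0.0686, rho = −0.417, adjusted p = 0.319), which rested on the same 2 libraries, since r was −0.381 without them (permutation p = 0.106). With the lateral hypothalamus markers *Hcrt* and *Pmch* it had r = 0.524 (adjusted p = 0.0561), or 0.556 without the 2. With group means kept, the relations of *Slc18a2* to the arcuate (adjusted p = 0.161), paraventricular (adjusted p = 0.277) and lateral hypothalamus markers (adjusted p = 0.572) missed the threshold. *Ddc* and *Hdc* had r = 0.526 (adjusted p = 0.0511) and rho = 0.535 (adjusted p = 0.0560), but 0.244 without RC NoDS replicate 1 and HFD NoDS replicate 20 (permutation p = 0.189), so this relation rested on those libraries.

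*Maoa* had r = 0.503 with *Hdc* (adjusted p = 0.112), which fell to 0.403 without 2 libraries (permutation p = 0.159), r = −0.564 with the arcuate markers (adjusted p = 0.0858) and r = −0.554 with the paraventricular markers (adjusted p = 0.0858). Without the same 2 libraries the last of these were −0.534 and −0.572. The relation to *Hdc* missed the threshold with group means kept (adjusted p = 0.269) and with the share of genes at 0 removed (adjusted p = 0.282), as that to the arcuate markers did in the latter (adjusted p = 0.273). *Slc6a3*, *Gch1*, *Drd2* and *Prlr* had no called relation with any of the 6 lists by Pearson. For *Gch1* and *Hdc*, r was 0.533 (adjusted p = 0.250).

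**Figure D3:**
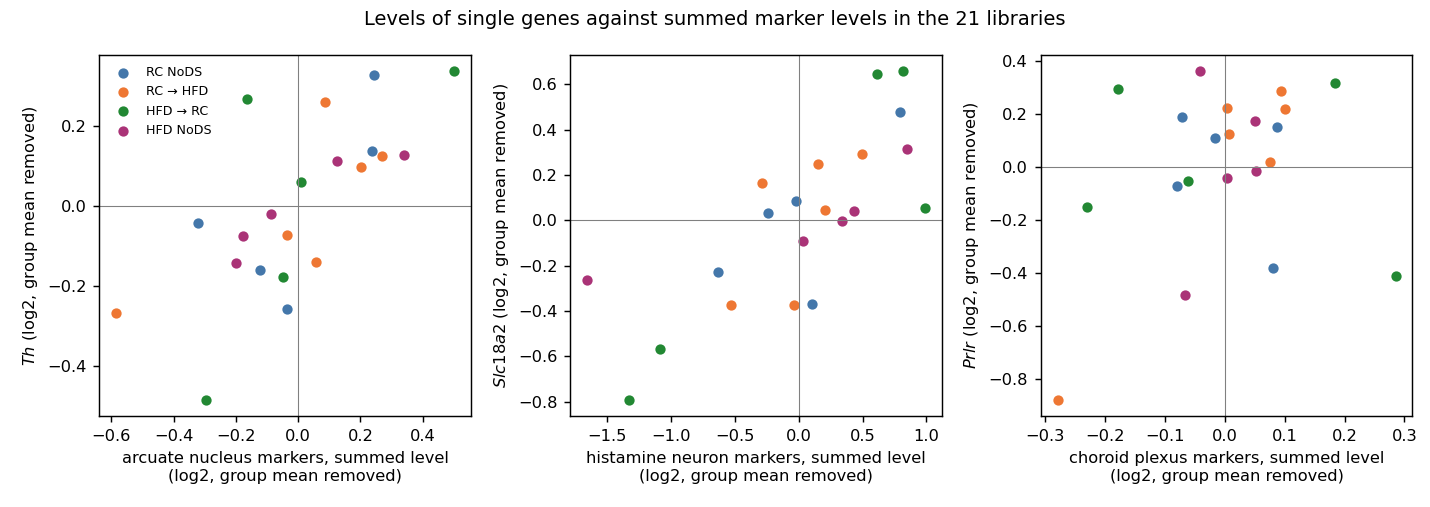
Log2 CPM of *Th*, *Slc18a2* and *Prlr* (y axes) against the log2 summed CPM of arcuate nucleus, histamine neuron and choroid plexus markers (x axes), with group means removed, for the 21 libraries colored by diet group. Pearson r is 0.701, 0.765 and 0.269 from left to right.

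Arcuate, paraventricular and histamine neuron markers, to which *Th* or *Slc18a2* was related, differed between diets by less than their largest SD. Arcuate markers summed to 892 ± 148 CPM (SD, n = 5) in RC NoDS, 826 ± 136 (n = 5) in HFD NoDS, 812 ± 152 (n = 6) in RC → HFD and 809.8 ± 185 (n = 5) in HFD → RC. *Hdc* reached 59.2 ± 23.0 CPM (SD, n = 5) in RC NoDS, 52.2 ± 24.7 (n = 5) in HFD NoDS, 48.1 ± 29.1 (n = 5) in HFD → RC and 44.1 ± 10.9 (n = 6) in RC → HFD. Paraventricular markers summed to 1027 ± 576 CPM (SD, n = 5) in HFD NoDS and 995 ± 456 (n = 5) in RC NoDS. In the switched groups they summed to 949 ± 337 (n = 6) in RC → HFD and 767 ± 463 (n = 5) in HFD → RC. The arcuate sum joins genes that went opposite ways with the current diet, *Npy* and *Agrp* below 0 and *Pomc* at 0.40 (SE 0.12, adjusted p = 0.745). Some other sums lay farther apart than either SD. Between RC NoDS (n = 5) and RC → HFD (n = 6), ventromedial nucleus markers had 113 ± 27.2 and 157 ± 33.2 CPM (SD), lateral hypothalamus markers 52.2 ± 35.1 and 101 ± 44.4, neuron markers 1575 ± 82.0 and 1753 ± 123, and endothelial markers 104 ± 12.9 and 121 ± 6.29. The *Hdc* means rank as those of *Slc18a2* do, except that the 2 switched groups trade places. The paraventricular means rank as those of *Th* do, and so do the arcuate means, except that the 2 unswitched groups trade places. The part of such differences between punches in the group means of *Th* and *Slc18a2* was not tested.

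Over the 16 other lists, 51 genes besides the 8 were tested. Those called by edgeR numbered 3 in RC NoDS v HFD NoDS, 1 in RC → HFD v HFD → RC, 3 over all 4 groups, 2 for the current diet, 1 for the earlier diet and 0 for the interaction, and all of them were *Npy*, *Agrp*, *Hcrt* or *Gfap*. DESeq2 called 4, 2, 5, 3, 2 and 0 in the same order, which adds *Socs3* of the prolactin list, and limma-voom 2, 1, 2, 2, 0 and 0. At an unadjusted p below 0.05 edgeR gave 9, 7, 14, 11, 6 and 12 of the 51, or 17.6%, 13.7%, 27.5%, 21.6%, 11.8% and 23.5%, each above the share among all tested genes. The lists were chosen with earlier results of these data known and hold *Npy* and *Agrp*, which the study had found to differ. A higher share was therefore likely in advance, and no result about the lists is drawn from it. The 12 for the interaction and the 14 over all 4 groups include *Prl* and *Gh*, the 11 for the current diet *Gh* and the 6 for the earlier diet *Prl*, and these genes reached the minimum for testing through few libraries (up to 841 and 2003 reads in 1 library). *Npy* and *Agrp*, the feeding peptides of the arcuate nucleus, fell by 1.10 (SE 0.11, adjusted p = 1.03e-06) and 0.93 (SE 0.14, adjusted p = 7.77e-04) on the log2 scale with HFD as current diet. For *Th*, which shares the arcuate nucleus with them, that difference was 0.11 (SE 0.09, adjusted p = 0.900). The other 4 of the 6 arcuate markers, like *Th*, were not called by current diet.

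In RC NoDS v HFD NoDS the called genes were *Npy* (−1.26, SE 0.16, adjusted p = 7.79e-05), *Agrp* (−0.97, SE 0.20, adjusted p = 0.0507) and *Hcrt* (2.71, SE 0.56, adjusted p = 0.0513), and in RC → HFD v HFD → RC *Npy* alone (0.94, SE 0.15, adjusted p = 0.0116). *Gfap* was called for the earlier diet (0.73, SE 0.15, adjusted p = 0.0891). *Npy* kept its call in RC NoDS v HFD NoDS and, with *Agrp*, for the current diet in every alternative run. *Npy* lost that of RC → HFD v HFD → RC with a robust dispersion (adjusted p = 0.530).

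*Agrp* lost its call in RC NoDS v HFD NoDS in 6 of 30 alternatives, with a robust dispersion and without RC NoDS replicate 1 or 5 or HFD NoDS replicate 19, 21 or 24 (adjusted p up to 0.255 over these). *Hcrt* lost it in 10 of 30 (adjusted p up to 1.00), by limma-voom, a robust dispersion, the covariate, the groups compared alone, without the 2 libraries above 30%, and without RC NoDS replicate 1, 2 or 5 or HFD NoDS replicate 20 or 21. *Gfap* lost it in 15 of 29 (adjusted p up to 1.00), by limma-voom, a robust dispersion, the covariate, without the 2 libraries, and without RC NoDS replicate 1, 2 or 5, RC → HFD replicate 8, 9, 10 or 11, HFD → RC replicate 13 or 14, or HFD NoDS replicate 20 or 23. Where calls were lost, the log2 differences kept their direction, at −0.85 to −0.97 for *Agrp*, 2.17 to 2.71 for *Hcrt* and 0.58 to 0.75 for *Gfap*.

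No gene besides *Hcrt* and *Gfap* was called by edgeR in the ventromedial nucleus (most abundant *Fezf1*, 433 reads per kilobase), paraventricular nucleus (*Avp*, 18157), lateral hypothalamus (*Pmch*, 1440.0), neuron (*Tubb3*, 4135), astrocyte (*Slc1a3*, 1494) and endothelial (*Cldn5*, 294) lists.

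Spread between libraries of 1 group differed among the 8 genes. Its SD on the log2 scale was 0.18 for *Ddc*, 0.20 for *Maoa*, 0.23 for *Th*, 0.29 for *Gch1*, 0.34 for *Prlr*, 0.34 for *Slc6a3*, 0.39 for *Drd2* and 0.41 for *Slc18a2*, beside a median of 0.22 over all tested genes. Against genes with similar read numbers, *Slc18a2* stood at percentile 97.1, *Prlr* at 96.0 and *Th* at 89.1, whereas *Gch1* stood at 47.1, *Maoa* at 56.7 and *Ddc* at 59.5. *Drd2* at 79.5 and *Slc6a3* at 75.4 lay between.

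The genes most like each of the 8 over the 21 libraries were sought among the 12767 other tested genes by Pearson r with group means removed, as a description. For *Th* they were *Ghrh* (r = 0.770), *Tmem189* (0.745) and *Ksr1* (0.743), of which *Ghrh* is in the arcuate list. For *Prlr* they were *Tmed10* (0.875), *Rnf2* (0.843) and *Mmgt2* (0.841), and for *Slc18a2* *Rgs4* (0.850), *Wif1* (0.828) and *Lmbrd1* (0.823). For *Slc6a3* they included *Tmem117* (0.894) and *Adamts9* (0.859). None of the 8 was among the 3 closest of another.

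The closest to *Drd2* were *Ldb3* (0.833), *Dcaf5* (0.769) and *Tmem74* (0.732), and to *Maoa* *Dhx40* (0.858), *Ipo5* (0.847) and *Ntng1* (0.841). For *Ddc* they were *Trmt12* (0.763), *U2af1* (0.726) and *Armc2* (0.724), and for *Gch1* *Inpp4a* (0.760), *Zmpste24* (0.754) and *Nrp2* (0.749). With group means kept, the closest were *Slc12a7* for *Th* (0.813), *U2af1* for *Ddc* (0.729), *Tmem117* for *Slc6a3* (0.881), *Wif1* for *Slc18a2* (0.836), *Ifit3* for *Gch1* (0.728), *Dcaf5* for *Drd2* (0.811), *Tmed10* for *Prlr* (0.898) and *Exoc6* for *Maoa* (0.847). The next 2 were then *Plagl1* and *Cebpb* for *Th*, *Ppp2r2b* and *Trmt12* for *Ddc*, *Socs6* and *Prune2* for *Slc6a3*, *1810030N24Rik* and *Rgs4* for *Slc18a2*, *1700054N08Rik* and *Spata13* for *Gch1*, *Trub1* and *Pvt1* for *Drd2*, *Rps6ka6* and *Gsx1* for *Prlr*, and *Exoc6b* and *Stag1* for *Maoa*.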

How the data were processed

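RNA was sequenced in 21 VH libraries. The authors aligned reads to mm9 with STAR 2.5.1b and re-sampled libraries to a common depth with PORT, and counts of reads per gene were used as deposited. How the counting treated overlapping genes and strand is not given in the sources. With edgeR 4.0.16 (R 4.3.3) a mean for each of the 4 groups was fitted by quasi-likelihood after TMM scaling (factors 0.981 to 1.02), for genes averaging at least 50 reads. Alternatives were DESeq2 1.42.0, limma-voom (limma 3.58.1), lower filters, no TMM, robust dispersion, the groups compared alone, a covariate and libraries left out. Correlations used log2 CPM, reads scaled to a common library total (prior count 2) and 100000 permutations within groups, two-sided (numpy 2.4.6, scipy 1.17.1 and pandas 2.3.3 under Python 3.11.15), and figures matplotlib 3.10.9. Tests between diets were checked on simulated counts with genes changed in HFD NoDS only, and the correlations were not checked in this way. The members and the lists were chosen with earlier results of these data known. Genes named are the 8, listed genes called, the most abundant gene of each list reported, and the 3 genes most like each member, of those reported. Further listed genes (*Jak2*, *Socs3*, *Kl*, *Ttr* and *Pitx3*, among others) were named after their values were seen. Some listed genes and genes alike are not reported here.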

Additional observations from a re-analysis of the deposited data

Results flagged for a closer look

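A library stood apart from the rest of its group, by the gap to its nearest neighbor over the range of the group (Dixon, 95%), in 8 of 96 groups examined, and chance gives about 1 in 20. For the 8 genes it was 3 of 32 groups. *Gch1* had 360 reads in RC NoDS replicate 6, with 252 next and 224 lowest. *Prlr* had 382 reads in RC → HFD replicate 12, with 717 next and 868 highest. *Maoa* had 557 reads in HFD NoDS replicate 20, with 734 next and 760 highest.

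Among summed marker levels in CPM, choroid plexus markers were at 65.45 in RC → HFD replicate 12 (79.62 next, 85.14 highest). Anterior pituitary markers were at 160.1 in HFD → RC replicate 13 (17.14 next, 3.475 lowest), and ventromedial nucleus markers at 241.9 in HFD → RC replicate 15 (143.9 next, 115.2 lowest). Endothelial markers were at 126.8 in RC NoDS replicate 6 (101.4 next, 95.19 lowest) and at 98.41 in HFD → RC replicate 16 (118 next, 125 highest).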

How the results depend on the processing

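In every alternative run, 0 of the 8 genes were called in the 6 comparisons, except 1, *Prlr* by earlier diet, without RC → HFD replicate 12 (0 to 1 when single libraries were left out). Of 1176 log2 differences of the 8 genes under alternatives, 1116 kept their direction and their side of the threshold, 59 reversed and 1 passed it. All that reversed had missed the threshold. The alternative without the 2 libraries above 30% of weakly expressed genes at 0, the removal of that share from the correlations, the pituitary family all alternatives for *Npy*, *Agrp*, *Hcrt* and *Gfap* and both other tools for all 51 listed genes were added after seeing the data.

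With the share at 0 as a covariate, log2 differences reversed to −0.016 (*Th*), 0.022 (*Slc18a2*) and 0.044 (*Maoa*) in RC NoDS v HFD NoDS, 0.064 (*Slc18a2*) in RC → HFD v HFD → RC, 0.078 (*Prlr*) and 0.025 (*Maoa*) for the current diet, 0.045 (*Ddc*), 0.043 (*Slc18a2*) and 0.019 (*Maoa*) for the earlier diet and −0.024 (*Ddc*) for the interaction. In limma-voom, *Drd2* reversed to 0.0085 in RC → HFD v HFD → RC and *Slc6a3* to 0.024 for the interaction. Without the 2 libraries, *Maoa* reversed to 0.030 for the current diet, *Ddc* to 0.018 for the earlier diet and *Slc6a3* to 0.072 for the interaction. The cause was not tested.

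When single libraries were left out, reversals occurred within these ranges: *Th* −0.024 to 0.13 and *Gch1* −0.18 to 0.058 in RC NoDS v HFD NoDS, *Slc6a3* −0.12 to 0.13, *Slc18a2* −0.20 to 0.14, *Drd2* −0.10 to 0.10 and *Maoa* −0.12 to 0.0092 in RC → HFD v HFD → RC, *Slc18a2* −0.16 to 0.0060, *Prlr* −0.059 to 0.056 and *Maoa* −0.054 to 0.018 for the current diet, *Ddc* −0.051 to 0.023 and *Gch1* −0.034 to 0.095 for the earlier diet, and *Ddc* −0.037 to 0.12 and *Slc6a3* −0.19 to 0.058 for the interaction.

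The number of all genes called moved by over 1.5 times under several alternatives. In RC NoDS v HFD NoDS, 10 became 17 in DESeq2 and 6 with the covariate. In RC → HFD v HFD → RC, 1 became 5 in DESeq2, 2 at a minimum of 5 reads, 3 with no filter, 0 with robust dispersion and 2 without the 2 libraries. Over all 4 groups, 19 became 133 in DESeq2, 31 with no filter, 12 with robust dispersion, 9 with the covariate and 48 without the 2 libraries. For the current diet, 6 became 12 in DESeq2. For the earlier diet, 9 became 32 in DESeq2, 3 in limma-voom, 35 with no filter, 5 with robust dispersion, 2 with the covariate and 5 without the 2 libraries. For the interaction, 4 became 116 in DESeq2, 15 in limma-voom, 0 at a minimum of 5 reads, 2 without TMM, 33 with the covariate and 190 without the 2 libraries. Of the 51 listed genes, DESeq2 called 2 in place of 1 in RC → HFD v HFD → RC and for the earlier diet (limma-voom 0) and 5 in place of 3 over all 4 groups. The cause was not tested.

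With single libraries left out these numbers ran from 5 to 14, 1 to 41, 9 to 80, 4 to 10, 2 to 70 and 0 to 124, in the same order. The first moved only without RC NoDS replicate 1 (5). HFD → RC replicate 16 gave the highest number in RC → HFD v HFD → RC, over all 4 groups, for the current diet and for the earlier diet. Without HFD NoDS replicate 20 the interaction gave 124 and without replicate 19 it gave 103, and it moved for 20 of the 21 libraries, the earlier diet for 17, all 4 groups for 11 and RC → HFD v HFD → RC for 4 (HFD → RC replicates 15, 16 and 17 and HFD NoDS replicate 23). The shares of all genes called are therefore no firm background.

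Correlations between the 8 genes reversed for *Ddc* and *Prlr* with the share at 0 removed (r = −0.0586), and with group means kept for *Slc18a2* and *Drd2* (r = −0.0241), *Gch1* and *Maoa* (r = −0.0599), *Drd2* and *Prlr* (r = 0.00579) and *Drd2* and *Maoa* (r = 0.176). With library size in place of TMM they reversed for *Gch1* and *Drd2* (r = 0.0174), *Drd2* and *Prlr* (r = 0.0104) and *Drd2* and *Maoa* (r = 0.0113). The cause was not tested.

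Each library pools 2 mice, no groups share replicate numbers, so no paired analysis was possible, and punches may hold unequal amounts of each nucleus. The share of weakly expressed genes at 0 is lowest in RC NoDS, without overlap with HFD NoDS but with overlap among other groups, so its effect and that of diet can be told apart only in part. Library totals were matched, but shares of weakly expressed genes at 0 were not, and the spread between libraries limits what can be seen: the 95% interval of *Drd2* in RC NoDS v HFD NoDS runs from −0.75 to 0.22 and that of *Th* from −0.23 to 0.30. Genes averaging under 50 reads were described and not tested.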
